A study of Drosophila melanogaster with 63 samples.

Results

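The comparison described here asks how the response of adult female flies to a lack of food differed between 48 h and 24 h. Spotted 2-colour arrays were used, on which RNA of treated and of control flies competes for the same spots. Of 63 arrays in the series, 11 belong to it: 5 of females starved for 48 h and 6 of females starved for 24 h. All flies were Drosophila melanogaster of the wild-type strain OregonR, kept at 25 C. Starved females, at 48 h and at 24 h, had only filter paper soaked in PBS, a salt buffer, while their control females had yeast paste on such paper. Sugar-fed females, with 6 arrays at 48 h and 5 at 24 h against yeast-fed controls, serve below as the most similar pair of groups. The labels give neither the age of the flies nor the tissue, and do not say whether different groups had the same control flies. Every gene with a value at both times was included, which was 9182 of 9212 genes on the array.

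An adult female on yeast turns much of the protein she eats into eggs. Her fat body, which does the work of liver and adipose tissue, and the follicle cells of the ovary make yolk proteins, and the follicle cells then lay down the vitelline membrane and, last, the chorion around each egg. Without protein the ovary holds back egg chambers before yolk uptake, while the fat body releases stored glycogen, lipid and protein, and gut cells adjust the digestive enzymes they make.

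Each value is a log2 ratio to control females of the same time, so that 1 is a 2-fold difference and 0 is none. Starved over control is the likely direction. Yeast-fed flies are called the control in the labels, and Lsp2, a storage protein of late larvae, has a ratio of 8.26 in larvae of 100 h against young larvae, the direction known for it. All arrays of a group carry 1 identical merged value per gene. A group is therefore a single value here, with no spread between arrays and no test, so "higher" and "lower" only compare values. The 48 h arrays came from print lots FP3 and FP5 and the 24 h arrays all from FP2, so lot and time cannot be told apart. Among these 48 h arrays, 2 carry the same array number with opposite dye orientations. Lots also differed between the times in sugar-fed females, with FP3 and FP5 at 48 h and FP2 and FP3 at 24 h. The difference between times also holds any change in the control females. As a yardstick for single spots, 640 genes had exactly 2 clones. The 2 clones differed in the 48 h minus 24 h difference by a median of 0.20, with a 95th percentile of 0.77. For 16 of these genes, or 2.5%, they differed by at least 2-fold. This yardstick holds nothing of the variation between animals or arrays. The arrays hold RNA of many cells, in which fewer cells of a type and less RNA per cell cannot be told apart.

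At 48 h, 58 genes were at least 2-fold higher than at 24 h, which is 0.632% of the 9182 genes, and 21 genes, or 0.229%, were at least 2-fold lower. Over all genes 4904, or 53.4%, had a difference above 0, which is the share to set beside the counts of higher genes in the lists below. The median difference over all genes was 0.02, and the 5th and 95th percentiles were -0.41 and 0.57. The genes of the lower group were mostly far below control at both times. Their median ratio was -3.28 at 48 h and -1.80 at 24 h, and 14 of the 21 were already at least 2-fold below control at 24 h. The genes of the higher group were mostly near or below control at 24 h. Their median ratio was 0.79 at 48 h and -0.31 at 24 h. Of these 58 genes 52 were above control at 48 h, while 43 were below it and 15 above it at 24 h. None of the 58 was 2-fold above control at 24 h, and Apoltp came closest at 0.94. The ratios spread more widely at 48 h, with an SD over genes of 0.40 at 48 h and 0.30 at 24 h. When both columns were given the same distribution (quantile normalisation), 38 genes were 2-fold higher and 10 were 2-fold lower, of which 32 and 7 were among the 58 and the 21. It also left 4506 genes above 0 and 4669 below, a median of -0.01.

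**Figure D1:**
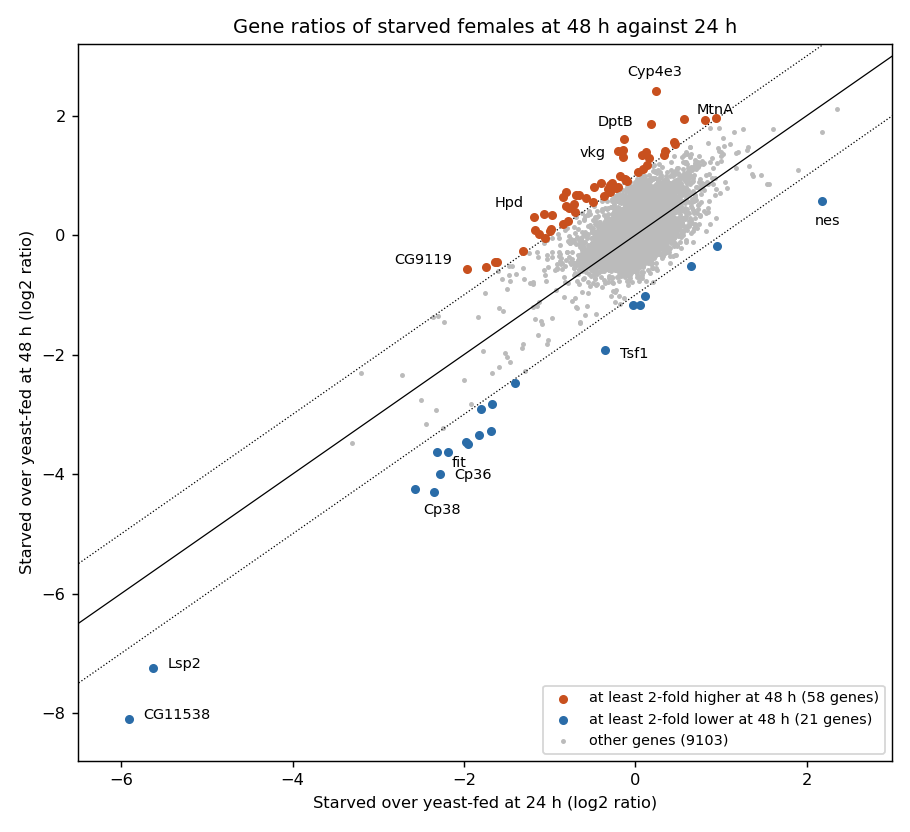
Log2 ratio of starved to yeast-fed females at 48 h (vertical axis) against 24 h (horizontal axis), 1 point per gene. The solid line marks equal ratios and the dotted lines a 2-fold difference. The 58 orange genes are at least 2-fold higher at 48 h and lie mostly near a ratio of 0, and the 21 blue genes are at least 2-fold lower and lie mostly far below 0.

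The chorion genes, which encode the proteins of the outer eggshell, made up a block of the lower genes. All 5 measured ones passed the 2-fold line at 48 h, and they were already at least 2-fold below control at 24 h. Cp38 had a ratio of -4.30 at 48 h and -2.35 at 24 h, a 3.88-fold lower value. Cp36 had -3.99 at 48 h and -2.28 at 24 h, 3.28-fold lower. Cp19 had -4.25 at 48 h and -2.57 at 24 h, 3.21-fold lower. Both other chorion genes were also lower, by less. Cp7Fc had -3.47 at 48 h and -1.98 at 24 h, and Cp16 had -3.62 at 48 h and -2.19 at 24 h. The median difference of the 5 was -1.68. After quantile normalisation the 5 differences were -0.54 to -0.90, all below the 2-fold line but of the same sign.

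The eggshell genes yellow-g2 and yellow-g lay close to the chorion genes. yellow-g2 had -2.82 at 48 h and -1.67 at 24 h, a difference of -1.15. yellow-g, of the same family, was just outside the 2-fold line with -3.23 at 48 h and -2.24 at 24 h. Femcoat, an eggshell protein gene, had -2.12 at 48 h and -1.47 at 24 h. dec, which encodes several eggshell matrix proteins (defective chorion), had a smaller difference, with -2.76 at 48 h and -2.50 at 24 h.

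The vitelline membrane genes, used earlier in the follicle cell than the chorion genes, did not share that pattern. Of 5 measured, 3 were higher at 48 h and 2 lower, with a median difference of 0.39. psd (palisade) was nearly 2-fold higher, with -1.35 at 48 h and -2.30 at 24 h. Vm26Ac had -1.37 at 48 h and -1.83 at 24 h, and Vm34Ca had -2.34 at 48 h and -2.72 at 24 h. These genes thus stood nearer to control at 48 h than at 24 h, although all 5 remained at least 2-fold below it at both times. Vm32E had nearly equal ratios, -3.48 at 48 h and -3.30 at 24 h. Vm26Aa, with -1.82 at 48 h and -1.03 at 24 h, was lower like the chorion genes. ndl (nudel), a protease of the follicle cells that helps set the embryo's axis, went with psd, at -0.90 at 48 h and -1.50 at 24 h.

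Over the whole eggshell list, 12 of 16 genes were lower at 48 h and 4 were higher, with 6 at least 2-fold lower and none 2-fold higher. The list median difference was -0.72, against 0.02 over all genes. After quantile normalisation 9 of the 16 were lower and 7 higher, with none past 2-fold lower and 2 at least 2-fold higher, and the median was -0.35. The same list in sugar-fed females had a median difference of -0.10. There all 5 chorion genes were lower at 24 h than in starved females, and differed less between the times. Cp38 had -2.79 at 48 h and -3.15 at 24 h on sugar, and Cp36 had -2.87 at 48 h and -3.05 at 24 h on sugar. For Cp38 and Cp36 the starved value was thus the lower one at 48 h and the higher one at 24 h.

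**Figure D2:**
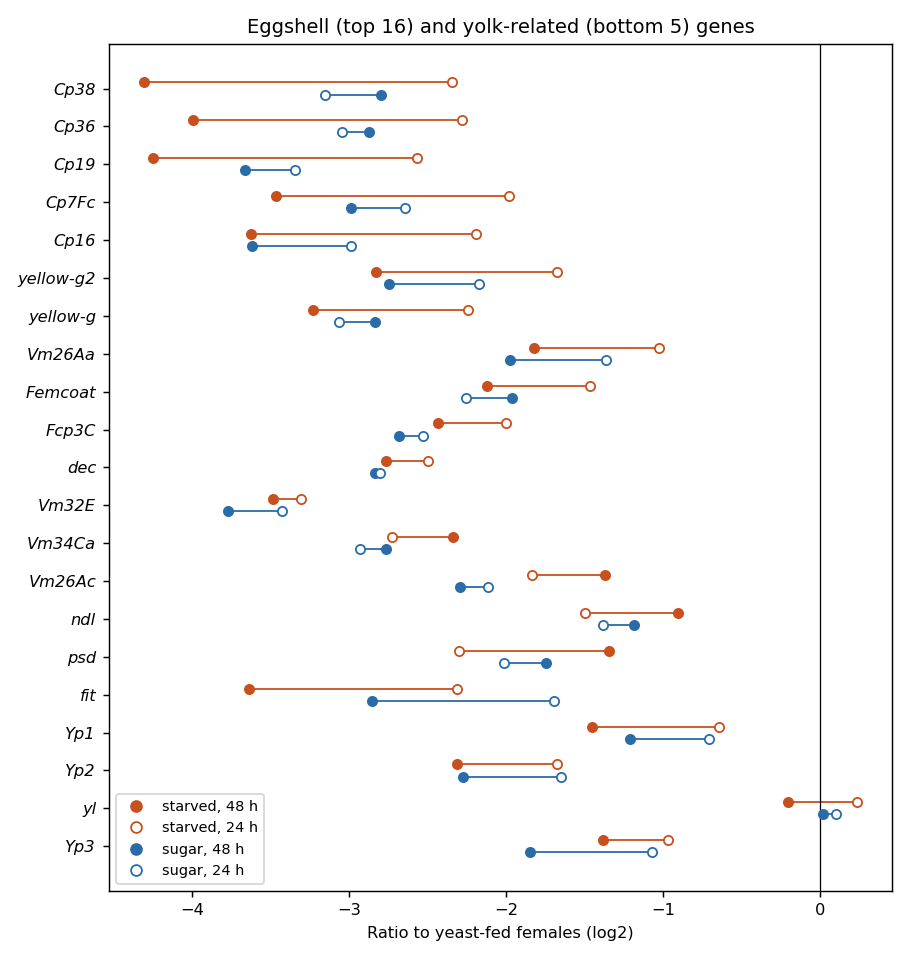
Log2 ratio to yeast-fed females of the 16 eggshell genes (top) and of fit, the 3 yolk protein genes and the yolk receptor gene yl (bottom), with starved females in orange and sugar-fed females in blue, filled at 48 h and open at 24 h. The 5 chorion genes move far to the left between the open and filled orange points, and psd, ndl, Vm26Ac and Vm34Ca move to the right. The blue pairs of the chorion genes lie closer together than their orange pairs.

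Some of the lower genes sat beside each other in the genome. Of 20 lower genes that could be placed, 9 had another lower gene within 2 genes of them, against 2 of the 58 higher genes. These 9 include all 5 chorion genes, and the share expected over all measured genes was not worked out. Cp7Fc, Cp36 and Cp38 form 1 such group on the X chromosome, and Cp19 and Cp16 another on 3L. The uncharacterised neighbours CG13084 and CG13083 on 2L had ratios much like those of the chorion genes. CG13084 had -3.50 at 48 h and -1.95 at 24 h, and CG13083 had -3.35 at 48 h and -1.83 at 24 h. The 2L genes CG31926 and CG31928 were also lower. CG31926 had -3.28 at 48 h and -1.69 at 24 h. In starved males at 24 h, CG13084, CG13083, CG31926 and CG31928 had ratios of 0.03, -0.07, -0.02 and 0.06. The chorion genes had -0.13 to 0.11 there. The median of all genes in those males was 0.004, so a ratio near 0 does not set these genes apart. All 9 genes with a lower neighbour lost the 2-fold call after quantile normalisation, when these 4 had differences of -0.78, -0.77, -0.96 and -0.54.

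The yolk genes were lower as a group, in both diets. All 5 measured genes of the yolk list were lower at 48 h in starved females, with a median difference of -0.64 and 1 of them at least 2-fold. Yp1 had -1.45 at 48 h and -0.64 at 24 h, Yp2 had -2.31 at 48 h and -1.67 at 24 h, and Yp3 had -1.38 at 48 h and -0.97 at 24 h. These 3 genes encode the yolk proteins themselves. yl, the receptor that takes yolk into the oocyte, had -0.20 at 48 h and 0.23 at 24 h. fit, a gene of the female fat body whose product acts in satiety after protein meals, showed the largest difference of this list. It had -3.63 at 48 h and -2.31 at 24 h, 2.50-fold lower. After quantile normalisation its difference was -0.30, that of Yp2 was -0.27, and all 5 genes were still lower, none of them 2-fold. In sugar-fed females fit had -2.85 at 48 h and -1.69 at 24 h, and the median difference of the list was -0.63.

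Markers of the germline, the other main cell type of the ovary, showed a far smaller difference. Of 27 genes, 17 were lower and 10 higher, with none past 2-fold and a median difference of -0.14. The median ratio of these genes was -0.11 at 48 h and -0.02 at 24 h. nanos, a regulator of germ cells and of the embryo's posterior end, was the lowest with -0.60 at 48 h and -0.02 at 24 h. zuc, which acts in the piRNA pathway, had -0.43 at 48 h and 0.03 at 24 h. piwi, from the same pathway, was the highest with 0.30 at 48 h and -0.04 at 24 h. No count of egg chambers was used, and any part of their number in the eggshell and yolk values was not tested.

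Genes of DNA replication and the cell cycle were mostly lower. Of 25 genes 21 were lower, none of them 2-fold, and the median difference was -0.29. Klp61F, a mitotic kinesin, had -0.35 at 48 h and 0.43 at 24 h. Prim2, a primase subunit, had -0.60 at 48 h and 0.00 at 24 h, and fzy, an activator of the anaphase-promoting complex, had -0.37 at 48 h and 0.21 at 24 h. PCNA, the sliding clamp, was the same at both times, -0.57 at 48 h and -0.58 at 24 h. The few higher genes included mad2, a spindle checkpoint gene, at 0.18 at 48 h and -0.15 at 24 h. Its 2 clones had differences of -0.09 and 0.75, so the direction rests on 1 of them. In sugar-fed females the list median difference was -0.16.

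Lsp2 had the second lowest ratio of all genes at both times. It encodes a larval serum protein that the adult fat body also makes, and it stood at -7.25 at 48 h and -5.63 at 24 h, 3.08-fold lower. The probe of CG11538 was lower still, with -8.09 at 48 h and -5.91 at 24 h. That symbol is an older name attached both to Lsp2 and to an antisense RNA, so it is uncertain which transcript the spot measured. In sugar-fed females Lsp2 had -6.71 at 48 h and -6.04 at 24 h. At such ratios the treated channel is likely dim, and the brightness of spots was not used here. Quantile normalisation gives both genes a difference of 0, since they hold the lowest ranks at both times.

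Tsf1, which encodes the iron carrier transferrin, was also lower, at -1.93 at 48 h and -0.35 at 24 h, 2.98-fold. nes (nessy), a lysophospholipid acyltransferase gene, was the one gene of the 21 that was at least 2-fold above control at 24 h. It had 0.57 at 48 h and 2.18 at 24 h, 3.06-fold lower, and in sugar-fed females it had -0.14 at 48 h and 0.66 at 24 h. Pi4KIIIalpha, a phosphatidylinositol kinase gene, was near control at 24 h and below it at 48 h, with -1.03 at 48 h and 0.11 at 24 h. Both ebd2 and D12 were above control at 24 h and below it at 48 h. ebd2 had -0.51 at 48 h and 0.64 at 24 h, and D12 had -0.18 at 48 h and 0.95 at 24 h.

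Cyp4e3, a cytochrome P450 gene, had the highest difference of all genes, with 2.42 at 48 h and 0.25 at 24 h, 4.50-fold higher. It stood nearly alone in its family. Of 66 P450 genes measured, 39 were higher and 27 lower, 1 was past 2-fold, and the median difference was 0.05. Cyp28d2 came next with 0.66 at 48 h and -0.24 at 24 h. At the other end, Cyp6w1 had 0.18 at 48 h and 0.87 at 24 h. Cyp4g1, needed for the waxy hydrocarbons of the cuticle, was far above control at both times, at 1.72 at 48 h and 2.18 at 24 h. In sugar-fed females Cyp4e3 had 0.42 at 48 h and -0.36 at 24 h.

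Among glutathione and UDP-glycosyl transferases, which attach small groups to foreign and waste molecules, 46 of 61 were higher, with a median difference of 0.15. GstE9 was the one past 2-fold, with 0.33 at 48 h and -0.97 at 24 h. Ugt35B1 had 0.93 at 48 h and 0.15 at 24 h. GstD9 had -0.34 at 48 h and -1.03 at 24 h. The Gst genes with the larger differences thus had low ratios at 24 h, and GstE9 was above control at 48 h. MtnA, the main copper-binding metallothionein, had 1.94 at 48 h and 0.57 at 24 h, 2.57-fold higher, and on sugar it had 1.17 at 48 h and 0.83 at 24 h. Its regulator MTF-1 had -0.09 at 48 h and 0.20 at 24 h.

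Several enzymes of amino acid use stood nearer to control at 48 h, or above it. Hpd, an enzyme of tyrosine breakdown, had 0.31 at 48 h and -1.18 at 24 h, 2.82-fold higher. Gs2, a glutamine synthetase, had 1.00 at 48 h and -0.18 at 24 h. Got2, a mitochondrial aspartate aminotransferase, had -0.51 at 48 h and -1.47 at 24 h. Tat and Faa, further steps of tyrosine breakdown, pointed the same way. Tat had 0.74 at 48 h and -0.04 at 24 h, and Faa had 0.51 at 48 h and -0.08 at 24 h. The whole list was mixed, with 14 of 20 genes higher, 2 of them 2-fold, and a median difference of 0.12. In sugar-fed females the list median difference was 0.10, with Hpd at 0.81 and Gs2 at 1.00. Agxt, an aminotransferase gene, was the lowest with -0.47 at 48 h and 0.15 at 24 h. P5CDh1, which acts in proline breakdown, had -0.18 at 48 h and 0.06 at 24 h.

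In the gluconeogenesis, glycogen and trehalose list, 5 genes had large differences and 9 had smaller ones in either direction. fbp, the fructose bisphosphatase of gluconeogenesis, had 0.19 at 48 h and -0.84 at 24 h, 2.05-fold higher. PCB, pyruvate carboxylase, had 0.93 at 48 h and 0.03 at 24 h. Pepck1, phosphoenolpyruvate carboxykinase, had 0.78 at 48 h and 0.04 at 24 h. All 3 of these enzymes act in making glucose from smaller molecules. AGBE, the glycogen branching enzyme, had -0.30 at 48 h and -1.24 at 24 h, and UGP, which makes UDP-glucose, had 0.34 at 48 h and -0.55 at 24 h. The other 9 genes lay between -0.30 and 0.18. Among them was Tps1, the trehalose synthase, above control at 0.64 at 48 h and 0.70 at 24 h. Of all 14 genes 8 were higher and 6 lower, a share near the 53.4% of all genes, and the median difference was 0.16. After quantile normalisation the median was 0.06 and no gene was past 2-fold. fbp had a difference of 0.93 after quantile normalisation, short of 2-fold. In sugar-fed females Pepck1 had -0.25 at 48 h and -0.87 at 24 h, and UGP had -0.83 at 48 h and -0.71 at 24 h, so that UGP was above control on starvation and below it on sugar at 48 h.

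Purine, folate and one-carbon genes were divided. CG11089, which has the synonym atic for an enzyme of the last steps of purine synthesis, had -0.53 at 48 h and -1.75 at 24 h. Its 2 clones had differences of 0.70 and 1.75, so the 2-fold call rests on 1 of them. Paics had 0.26 at 48 h and -0.60 at 24 h, and Nmdmc, a mitochondrial folate enzyme, had -0.27 at 48 h and -1.15 at 24 h. Shmt, which feeds serine into the folate cycle, had -0.73 at 48 h and -1.55 at 24 h. Prat2, one of a pair of genes for the first step of purine synthesis, moved the other way with -1.17 at 48 h and -0.03 at 24 h. Prat, the other of the pair, had -0.27 at 48 h and -0.19 at 24 h. Ts, thymidylate synthase, had -0.48 at 48 h and -0.03 at 24 h. In all, 9 of 15 genes were higher and 6 lower, a share near the 53.4% of all genes, with 1 past 2-fold in each direction.

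Lipid genes were higher more often than the 53.4% of all genes. In the breakdown list 14 of 19 genes were higher, none 2-fold, with a median difference of 0.31, against 0.08 in sugar-fed females. mag (magro), a gut lipase, had 0.22 at 48 h and -0.65 at 24 h. Fatp1, a fatty acid transporter, had 0.79 at 48 h and -0.08 at 24 h. Lip4, a lipase, had 0.89 at 48 h and 0.13 at 24 h. bmm (brummer), the lipase of fat body droplets, was not above control at either time, with 0.00 at 48 h and -0.41 at 24 h. whd, the carnitine palmitoyltransferase that admits fatty acids to mitochondria, had 0.73 at 48 h and 0.30 at 24 h. Echs1, a step of beta-oxidation, was the lowest, at -0.21 at 48 h and 0.01 at 24 h.

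In the fatty acid and triglyceride synthesis list 12 of 17 genes were higher, none 2-fold, with a median difference of 0.26. After quantile normalisation 10 of the 17 were higher and the median was 0.08. FASN3, a fatty acid synthase, had 0.55 at 48 h and -0.14 at 24 h, but its 2 clones had differences of 0.07 and 1.32. ACC, the first enzyme of the path, had 0.12 at 48 h and -0.37 at 24 h, with clone differences of 0.81 and 0.17. Desat1, which adds a double bond to fatty acids, was the lowest with -0.56 at 48 h and 0.20 at 24 h. SREBP, a regulator of lipid synthesis, had 0.00 at 48 h and 0.37 at 24 h. FASN1, the main fatty acid synthase, set the diets apart. It had 0.04 at 48 h and -0.24 at 24 h on starvation, against 1.00 at 48 h and 0.71 at 24 h on sugar.

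Of the carriers that move lipid between tissues, 11 of 14 were higher, with a median difference of 0.39. Apoltp, which loads lipid onto the circulating lipoprotein, had 1.95 at 48 h and 0.94 at 24 h, and its difference of 1.02 was 0.99 after centring and 0.92 after quantile normalisation. apolpp, the lipoprotein's own gene, had 0.45 at 48 h and 0.00 at 24 h. Acbp2, a binding protein for acyl-CoA, had -0.08 at 48 h and -1.03 at 24 h. Npc2f and Npc2e, of a sterol-binding family, had differences of 0.72 and 0.63. The lowest were Npc2a with -0.16 and Acbp3 with -0.11.

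**Figure D3:**
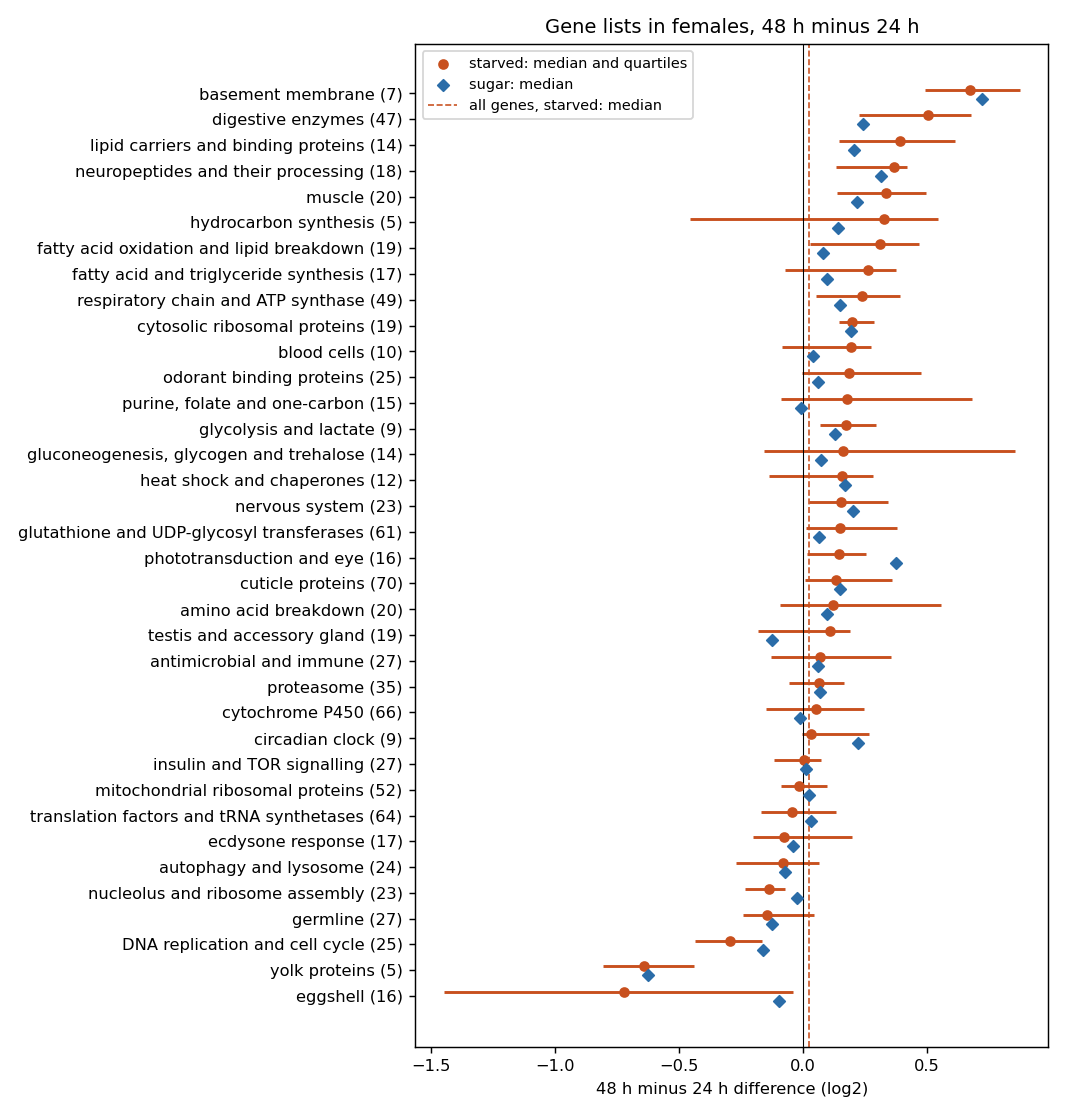
Median 48 h minus 24 h difference (log2) of each gene list with at least 5 measured genes, with the number of genes in brackets. Orange points are starved females, with a line between the quartiles, blue diamonds are sugar-fed females, and the dashed line is the median of all genes in starved females, 0.02. Basement membrane, digestive enzymes and lipid carriers lie furthest right at 0.67, 0.50 and 0.39, and eggshell, yolk and DNA replication furthest left at -0.72, -0.64 and -0.29.

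Digestive enzymes were mostly higher. Of 47 genes 42 were higher at 48 h, 4 of them at least 2-fold, and 1 of the 5 lower genes was past 2-fold. The median difference was 0.50, against 0.02 for all genes and 0.24 for the same list in sugar-fed females. The list median ratio was 0.16 at 48 h and -0.18 at 24 h. After quantile normalisation 37 genes were higher and the median difference was 0.32.

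The maltases and amylases had a median ratio of -0.01 at 48 h and -0.65 at 24 h. Mal-A1, a maltase, had 0.01 at 48 h and -1.13 at 24 h, 2.20-fold higher. Mal-A3 had 0.13 at 48 h and -0.72 at 24 h, and Mal-A6 had -0.07 at 48 h and -0.75 at 24 h. On sugar these maltases were still below control at 48 h. Mal-A1 had -0.84 at 48 h and -1.19 at 24 h on sugar, and Mal-A3 had -1.15 at 48 h and -1.26 at 24 h. Across 10 maltases and amylases 9 were higher in starved females, with a median difference of 0.55. Mal-B2 was the exception, with -1.17 at 48 h and 0.06 at 24 h, 2.34-fold lower.

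Lysosomal mannosidases, which trim sugars from glycoproteins, resembled the maltases. Of 5 genes 4 were higher, with a median difference of 0.56. LManVI had -0.45 at 48 h and -1.61 at 24 h, 2.25-fold higher, while on sugar it had -2.47 at 48 h and -2.27 at 24 h. LManIII had -0.54 at 48 h and -1.02 at 24 h, and on sugar -1.55 at 48 h and -1.48 at 24 h. LManV was the one lower gene, at -0.22 at 48 h and -0.10 at 24 h.

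All 4 lysozyme genes measured were higher, with a median difference of 1.02. LysX had 0.66 at 48 h and -0.70 at 24 h, and LysE had 0.68 at 48 h and -0.65 at 24 h, both past 2-fold. Fly lysozymes digest bacteria in the gut. These genes are close copies of each other, so 1 spot may report several of them. LysP had 1.01 at 48 h and 0.30 at 24 h. Sugar-fed females showed about the same, with a list median difference of 1.07.

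The proteases fell into groups by their level at 24 h. All 11 trypsins were higher at 48 h, with a median difference of 0.34, and all of them were above control at both times. deltaTry had 1.22 at 48 h and 0.59 at 24 h, alphaTry had 1.42 at 48 h and 0.98 at 24 h, and betaTry had 1.37 at 48 h and 1.02 at 24 h. Several trypsin genes are near-identical, and their spots may share signal. Of 13 Jonah proteases, a family of chymotrypsin-like gut enzymes, 11 were higher, with a median ratio of -0.41 at 48 h and -0.44 at 24 h and a median difference of 0.41. Jon25Bi had -1.46 at 48 h and -2.23 at 24 h, and Jon25Biii had -0.67 at 48 h and -1.48 at 24 h. Jon25Bii differed from most of its family with -1.15 at 48 h and -0.18 at 24 h, as it did on sugar, at -1.79 at 48 h and 0.01 at 24 h. Jon74E stayed above control with 0.98 at 48 h and 1.37 at 24 h, a difference of -0.39, or -0.76 after quantile normalisation.

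**Figure D4:**
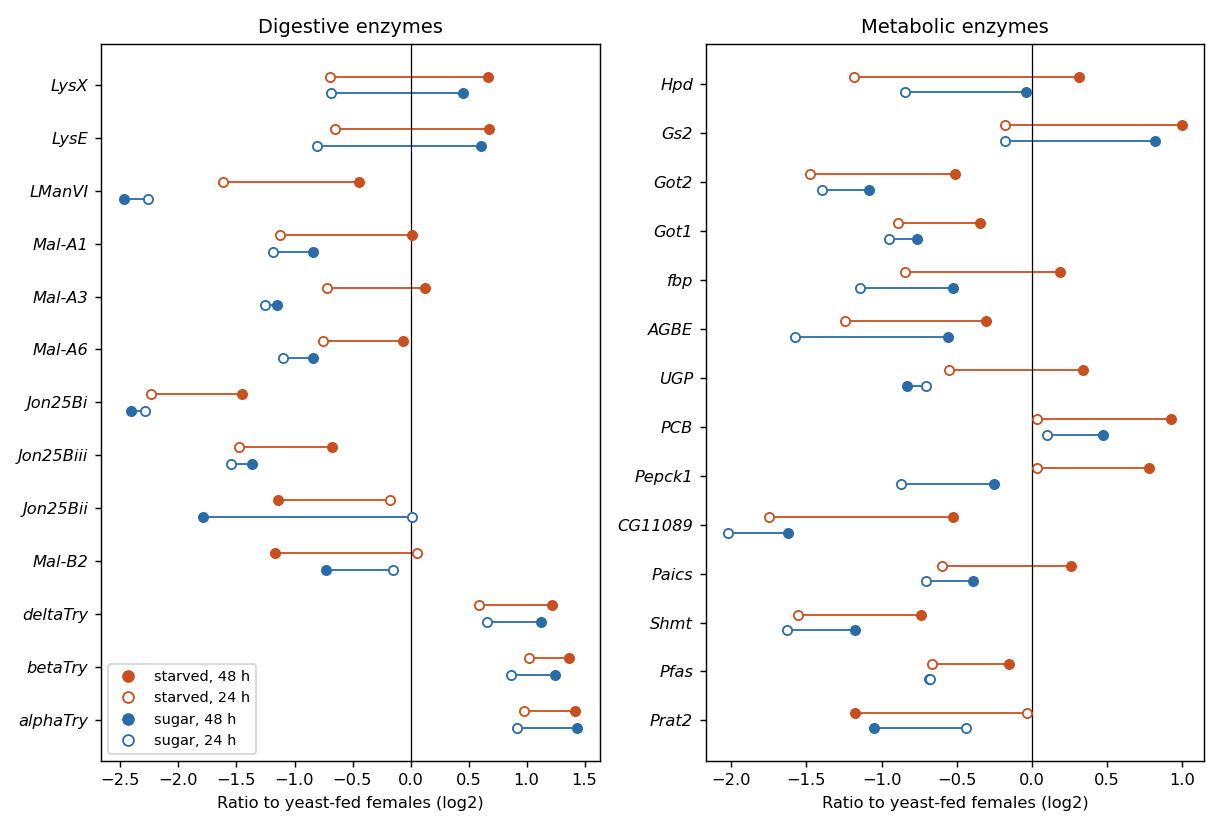
Log2 ratio to yeast-fed females of selected digestive enzymes (left) and metabolic enzymes (right), chosen after their values were seen, with starved females in orange and sugar-fed females in blue, filled at 48 h and open at 24 h. Most filled orange points lie to the right of their open ones, while the blue points of LManVI, Mal-A3, UGP and Pfas barely move and stay below 0. Mal-B2, Jon25Bii and Prat2 run the other way.

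Basement membrane genes had the highest list median difference of lists with at least 5 measured genes, 0.67, with 6 of 7 higher and 2 at least 2-fold. The basement membrane is the protein sheet under epithelia and around muscle and fat body. vkg and Col4a1 encode the chains of collagen IV and lie side by side in the genome. vkg had 1.31 at 48 h and -0.15 at 24 h, 2.75-fold higher, and Col4a1 had 1.17 at 48 h and 0.13 at 24 h, 2.05-fold higher. After quantile normalisation Col4a1 had a difference of 0.78, which leaves vkg as the one past 2-fold. LanB2, a laminin chain, had 0.59 at 48 h and -0.12 at 24 h. SPARC, a collagen-binding protein, had 1.23 at 48 h and 0.56 at 24 h. LanB1 was the one lower gene, at 0.22 at 48 h and 0.34 at 24 h. Sugar-fed females had a list median difference of 0.72. Blood cells also make basement membrane proteins, and of 10 blood cell genes 7 were higher, with a median difference of 0.19 and a median ratio of 0.13 at 48 h and -0.12 at 24 h. Of the defining markers, Hml had a difference of 0.32 and Pxn 0.24, while NimC1 and eater both had -0.12. The part of blood cells in the collagen values was not tested.

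Muscle genes stood higher relative to control at 48 h. Of 20 muscle genes 19 were higher, none 2-fold, with a median difference of 0.33 and a median ratio of 0.72 at 48 h and 0.31 at 24 h. The median difference of the list was 0.22 in sugar-fed females. After quantile normalisation 14 of the 20 were higher in starved females, with a median of 0.15. Mlc1, a myosin light chain, had 1.19 at 48 h and 0.28 at 24 h. sls, the giant spring protein of the sarcomere, had 1.32 at 48 h and 0.46 at 24 h. Its difference of 0.86 joins medians over unequal sets of clones, and the 2 clones measured at both times had 0.63 and 0.28. up, a troponin gene, had 0.99 at 48 h and 0.35 at 24 h. Zasp67 was the one lower gene, at -0.28 at 48 h and 0.17 at 24 h, and Argk1 had 0.12 at 48 h and 0.11 at 24 h.

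In the eye list 13 of 16 genes were higher, with 1 past 2-fold and a median difference of 0.14, against 0.37 in sugar-fed females. That direction was lost after quantile normalisation, with 8 genes higher, 8 lower and a median of -0.02. Ggamma30A, a G protein subunit of photoreceptors, had 1.34 at 48 h and 0.33 at 24 h, and its difference of 1.01 was 0.98 after centring and 0.69 after quantile normalisation. chp (chaoptin) had 1.31 at 48 h and 0.54 at 24 h, and Arr1, an arrestin, had 1.54 at 48 h and 0.85 at 24 h. The gene of the photoreceptor channel trp, in contrast, had 1.43 at 48 h and 1.30 at 24 h. The lowest eye genes were ninaB with a difference of -0.11 and inaC with -0.06.

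Of 23 genes of the nervous system 18 were higher, none 2-fold, with a median difference of 0.15, against 0.20 in sugar-fed females. After quantile normalisation 12 were higher and 11 lower, with a median of 0.01. Ace, the acetylcholinesterase, had 0.82 at 48 h and -0.09 at 24 h, and cac, a calcium channel of synapses, had 0.68 at 48 h and 0.10 at 24 h. elav, which marks neurons, had 0.71 at 48 h and 0.23 at 24 h. The lowest were Sh and unc-13, each with a difference of -0.14. For Sh that is the value of 1 clone, and its other clones had differences of 0.13 and 0.20. The mean over clones gave Sh a difference of 0.06. No measure of ovary size was used, and any part of it in the ratios of muscle, eye and nervous tissue was not tested. Of the ovary lists in the same females, the eggshell list had a median ratio of -2.79 at 48 h and -2.22 at 24 h. The germline list had a median ratio of -0.11 at 48 h and -0.02 at 24 h.

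**Figure D5:**
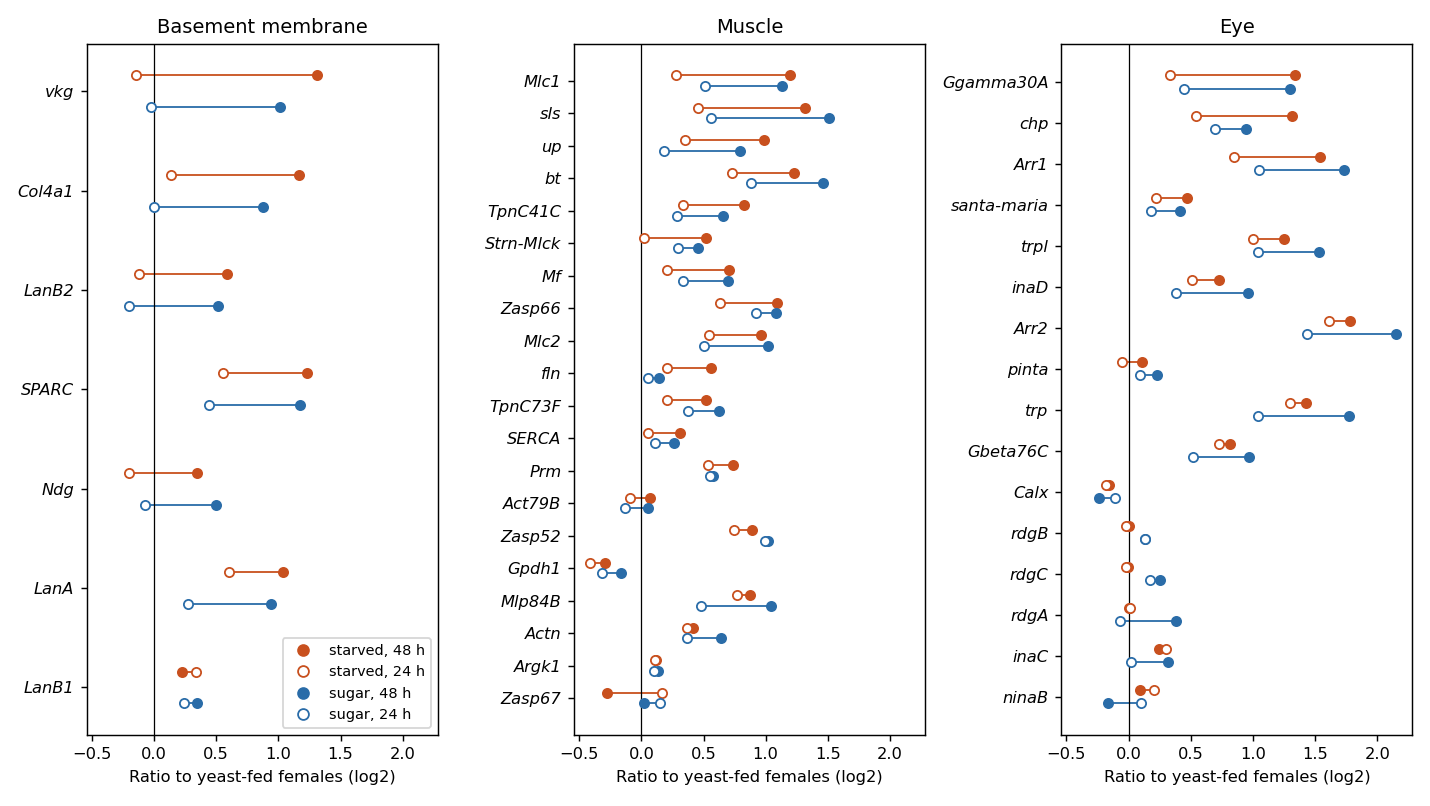
Log2 ratio to yeast-fed females of the basement membrane (left), muscle (middle) and eye (right) genes, with starved females in orange and sugar-fed females in blue, filled at 48 h and open at 24 h. In each panel the gene with the highest 48 h minus 24 h difference of starved females is at the top. vkg and Col4a1 start near 0 and pass 1, most muscle genes lie above 0 at both times and further right at 48 h, and trp and Arr2 are high at both times.

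Neuropeptides and the enzymes that process them had a larger median difference than the nervous system list, 0.36 (0.15 after quantile normalisation), with 14 of 18 higher and 2 at least 2-fold. Nplp3, a neuropeptide-like precursor, had 0.72 at 48 h and -0.81 at 24 h, 2.88-fold higher. Ilp2, the insulin-like peptide of brain cells, had 0.55 at 48 h and -0.49 at 24 h, 2.06-fold higher (a difference of 0.94 after quantile normalisation). AkhR, the receptor for the hormone that mobilises fat body stores, had 1.03 at 48 h and 0.49 at 24 h. ETH, which triggers moulting behaviour, was the lowest with -0.37 at 48 h and 0.03 at 24 h. In sugar-fed females Ilp2 had 0.33 at 48 h and -0.13 at 24 h, and Nplp3 had 0.70 at 48 h and -0.46 at 24 h. The insulin and TOR pathway itself had a median difference of 0.00, with 15 of 27 higher, or -0.15 with 6 higher after quantile normalisation. Only ImpL2, a secreted binder of insulin-like peptides, differed by more than 0.5 there, at 0.95 at 48 h and 0.20 at 24 h. foxo had -0.12 at 48 h and 0.10 at 24 h, and REPTOR, a transcription factor downstream of TOR, had 0.25 at 48 h and 0.44 at 24 h.

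DptB was the one immune gene past 2-fold. It encodes the antibacterial peptide diptericin B, and had 1.86 at 48 h and 0.19 at 24 h, 3.19-fold higher. On sugar it was below control, with -0.20 at 48 h and -0.30 at 24 h. Of 27 antimicrobial and immune genes 15 were higher and 12 lower, with a median difference of 0.07. Within that list, 5 of 7 antimicrobial peptide genes were higher, with a median of 0.27, and 6 of 7 peptidoglycan recognition protein genes, with a median of 0.13. Drs (drosomycin), a peptide of the Toll pathway, was high in both diets, at 1.22 at 48 h and 0.58 at 24 h on starvation and 1.31 at 48 h and 0.73 at 24 h on sugar. Drsl5 had 1.17 at 48 h and 0.21 at 24 h. PGRP-LF, an inhibitor of the Imd pathway, had 0.83 at 48 h and 0.01 at 24 h. BomBc2, a peptide gene of the Toll response, was the lowest, with -0.47 at 48 h and 0.40 at 24 h.

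The protein synthesis machinery had small differences that split by part. All 19 cytosolic ribosomal protein genes were higher, none 2-fold, with differences of 0.02 to 0.50 and a median of 0.20, but 18 were after centring and 16 after quantile normalisation. The median in sugar-fed females was 0.19. RpL37A had 0.50 at 48 h and 0.00 at 24 h, and RpS18 had -0.03 at 48 h and -0.49 at 24 h. The genes that build ribosomes in the nucleolus went the other way, with 19 of 23 lower and a median difference of -0.14. Non1, a nucleolar GTPase, was the lowest at 1.09 at 48 h and 1.90 at 24 h, both well above control. kz, an RNA helicase gene, had 0.18 at 48 h and 0.74 at 24 h. Mitochondrial ribosomal proteins had a median difference of -0.02, with 23 of 52 higher, or 0.02 with 30 higher after quantile normalisation. mRpL3, at 0.27 at 48 h and -0.60 at 24 h, lay far from the rest of them. Translation factors and tRNA synthetases had a median difference of -0.04, with 27 of 64 higher.

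Genes of the respiratory chain were higher in 37 of 49 cases, none 2-fold, with a median difference of 0.24. ATPsynbeta, a catalytic subunit of ATP synthase, had 0.34 at 48 h and -0.24 at 24 h. ND-42 was the lowest, with 0.25 at 48 h and 0.53 at 24 h. Tom7, a small part of the import pore in the outer mitochondrial membrane, was past 2-fold with 1.42 at 48 h and -0.14 at 24 h. Glycolysis genes were higher in 7 of 9 cases, with a median of 0.17, and in 5 of 9 after quantile normalisation. Ald1 led them at 1.26 at 48 h and 0.70 at 24 h. Autophagy and lysosome genes were lower in 16 of 24 cases, with a median of -0.08. Atg12 had 0.57 at 48 h and -0.01 at 24 h, whereas Atg7 had -0.51 at 48 h and 0.03 at 24 h and Atg17 had 0.08 at 48 h and 0.60 at 24 h. The proteasome list remained below control, with a median ratio of -0.34 at 48 h and -0.30 at 24 h, and 25 of 35 genes were slightly higher.

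Cuticle proteins had a median difference of 0.13, with 53 of 70 higher and Cpr30B and Cpr47Eg past 2-fold at 1.02 and 1.01, though neither was after centring or quantile normalisation. Odorant-binding proteins had 0.18, with 18 of 25 higher, Obp56e highest at 0.83 and Obp99a lowest at -0.74. Heat shock and chaperone genes had 0.16, with 8 of 12 higher, led by l(2)efl at 0.98 at 48 h and 0.12 at 24 h. Circadian genes had 0.03 (-0.09 after quantile normalisation) and ecdysone response genes -0.08. Testis and accessory gland genes, which females should lack, had 0.11, with 11 of 19 higher and none past 2-fold from control at either time. Their differences nevertheless ranged from -0.59 to 0.60, as large as those of many genes named above.

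Many of the highest genes have no assigned role here. CG5966 had 1.61 at 48 h and -0.13 at 24 h, 3.34-fold higher. CG11893 had 1.41 at 48 h and -0.20 at 24 h, and CG13323 had 0.36 at 48 h and -1.07 at 24 h. CG9377 had 0.63 at 48 h and -0.84 at 24 h, but its 2 clones had differences of 0.21 and 2.74. CG9119 had -0.57 at 48 h and -1.97 at 24 h. Of the 58 higher genes 28 carry only such a number, and 54 rest on 1 clone, as do all 21 lower genes. Scp2, a calcium-binding protein gene, had 0.81 at 48 h and -0.48 at 24 h. Vha68-3, a subunit of the vacuolar proton pump, had 0.09 at 48 h and -1.18 at 24 h. At the edge of the 2-fold line, CG7675 was just inside with a difference of 1.00 (0.98 after centring), and smp-30 and FarO were just outside with 0.99 each.

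Sugar-fed females underwent the same interval without protein but with carbohydrate. Their controls may have been those of the starved females, so the values of both diets are set side by side with no measure of their likeness. On sugar the print lots also differed between the times, in another mix than in starved females, so comparing the diets does not remove lot. The 58 higher genes had a median difference of 0.62 in the sugar-fed females, with a range of -0.24 to 2.13, against -0.00264 over all genes on sugar. The 21 lower genes had a sugar median of -0.41, with a range of -1.23 to 0.36. In sugar-fed males the 58 genes had a median difference of 0.01, the same as the 0.01 over all genes there. No array of the series is labelled as males starved for 48 h.

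The starved difference minus the sugar difference was at least 2-fold higher in 69 genes, or 0.752% of 9179, and at least 2-fold lower in 24, or 0.261%. The lowest were Cp38 with -2.32 and Cp36 with -1.89, followed by CG15056 with -1.67, CG13083 with -1.63, CG11538 with -1.47 and TwdlM, a cuticle protein gene, with -1.44. For Cp38 and Cp36 the starved difference made up most of that value. For CG15056 and TwdlM the sugar difference did. TwdlM had 0.50 at 48 h and -0.01 at 24 h on starvation and 1.34 at 48 h and -0.61 at 24 h on sugar.

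The highest were CG14668 with 3.14, CG7798 with 2.61, CG17764 with 2.22, Amy-p with 1.81, wrapper with 1.72 and CG15308 with 1.69. All 6 of these had a difference of larger size on sugar than on starvation. CG14668 had 0.50 at 48 h and -0.05 at 24 h on starvation, against -2.50 at 48 h and 0.10 at 24 h on sugar. CG7798 had 0.03 at 48 h and 0.27 at 24 h on starvation, against -0.11 at 48 h and 2.74 at 24 h on sugar. Amy-p, the starch-cutting amylase, had -0.48 at 48 h and -0.75 at 24 h on starvation, against -2.22 at 48 h and -0.69 at 24 h on sugar. The amylase genes are near-identical copies, so the spot may report more than 1 of them. DptB and Tom7 had small sugar differences of 0.10 and 0.19, and starved minus sugar values of 1.58 and 1.37. Cyp4e3 and CG5966 also differed on sugar, by 0.78 and 0.44, where the 95th percentile of all genes was 0.48, and their starved minus sugar values were 1.39 and 1.30.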

How the data were processed

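The authors' deposited values are log2 ratios, 1 column per array. Per the labels, the authors scanned each array 3 times and merged the spot pair of every clone over all hybridisations. All arrays of each group held identical columns, so a group is 1 value per gene. The base follows from the values: 2 raised to the size of a value is a number of 6 decimals for 100% of 48292 values (base e 10.1%, base 10 9.75%). How the values were background-corrected, normalised and centred is not stated there, and no depth or brightness was used. The number of arrays limits the precision.

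Of 12094 clones 10148 had 1 gene symbol, through the platform annotation and RefSeq (assembly Release 6 plus ISO1 MT, used only for names and neighbours). Gene values are medians over clones, and the 48 h minus 24 h difference is the first median minus the second. Genes past 2-fold were counted with pandas 2.3.3, and the counting was tested on simulated data. No low-value filter, model or p-value was used.

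The comparison and the 38 gene lists were chosen with earlier results of these data known, as were the 1.5-fold and 3-fold thresholds, centring, quantile normalisation and clone rules tried as alternatives. After values were seen, 11 measured genes outside a list's role were taken out, and chorion, vitelline membrane, Jonah protease, trypsin, maltase, mannosidase, lysozyme, antimicrobial peptide and PGRP genes were set apart as smaller lists. The genes named are the 20 highest and 20 lowest, the 3 highest and 3 lowest of each list and the 6 highest and 6 lowest of the starved minus sugar difference, with some CG-numbered genes left out and some further genes chosen after their values were seen.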

Additional observations from a re-analysis of the deposited data

Results flagged for a closer look

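For 7 genes at least 2-fold from 24 h in starved females, the 48 h minus 24 h difference had opposite signs in starved and in sugar-fed females. The starved minus sugar difference was 1.26 for CG10332, 1.26 for CG13138, 1.37 for LManVI and 1.30 for Scp2, which were higher at 48 h on starvation. It was -2.32 for Cp38, -1.89 for Cp36 and -1.63 for CG13083, which were lower. This difference between the diets was not tested, since each group is 1 value per gene. For Scp2 the sugar difference was -0.01, hardly below 0, and the largest of opposite sign was that of Cp38, at 0.36.

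Clones without a gene symbol were outside the gene counts. Of 1941 with values at both times, 9 were at least 2-fold higher and 5 at least 2-fold lower at 48 h, with a highest difference of 2.54 and a lowest of -1.26.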

How the results depend on the processing

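The count of higher genes was 422 at 1.5-fold, 4 at 3-fold, 4 among genes with more than 1 clone and 38 after quantile normalisation, against 58. The count of lower genes was 130 at 1.5-fold, 7 at 3-fold, 0 among genes with more than 1 clone and 10 after quantile normalisation, against 21. Genes whose starved difference exceeded the sugar one numbered 381 at 1.5-fold, 9 at 3-fold and 45 after quantile normalisation, against 69. In the opposite direction there were 141 at 1.5-fold and 4 at 3-fold, against 24. Thresholds and clone numbers shift counts by construction, and the cause of the shift under quantile normalisation was not tested. Centring, the mean over clones, the count over clones and the median of differences within clones (the last added after seeing the data) left all such counts they were run on within 1.5 times. No gene past 2-fold changed sign. Quantile normalisation moved 4 of 38 list medians by more than the clone yardstick: eggshell to -0.35 against -0.72, neuropeptides to 0.15 against 0.36, and, with the sign turned, hydrocarbon synthesis to -0.09 against 0.33 and larval serum proteins to 0.11 against -0.71. The median over all genes was -0.01 against 0.02, and the eye, circadian, insulin and TOR and mitochondrial ribosomal medians, all small, also turned. It also moved 45 of 247 named gene values, with the cause again not tested. Arrays could not be left out one at a time, since only merged values were used. No paired analysis was possible because the groups carry 1 merged value each. Brightness, which limits the precision of low ratios such as those of Lsp2, was not used here.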
